A study of Apis mellifera with 18 samples.

Results

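The circadian clock genes of the honey bee brain (Apis mellifera) were taken as the rows named Per, Cry, Clk, Cyc, tim2, Vri or Pdp1 in the RNA-seq tables of the series. The name Per carried 2 of the 16699 features (9939 genes and 6760 lncRNA transcripts): the gene Per (period) and a lncRNA transcript, TCONS_00069016, that is listed under it. Genes under the other 6 names were not analysed here. The mammalian-type cryptochrome gene, whose older symbol is Cry, is listed as Cry2, and it was used with E75 as a gene to compare Per with. The libraries came from newly emerged workers kept in cages in darkness. Bees of the DT groups drank 50% sucrose solution with the neonicotinoid dinotefuran at 0.01 mg/L, and bees of the C groups drank the sucrose solution alone. Brains were taken on day 1, 5 or 10, which gave the groups DT_1d, C_1d, DT_5d, C_5d, DT_10d and C_10d with 3 libraries each, and each library held RNA of 15 pooled brains. The study states that control bees were sampled at the same time as treated bees, but the hour of collection is not given in the sources used here. A changed mean level of a clock transcript and a shifted daily phase therefore cannot be told apart.

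In animals the clock is a loop of transcription and feedback, in which the activators CLK and CYC switch on period and the PER protein later returns to the nucleus and shuts its own gene off. The honey bee uses a cryptochrome of the mammalian type (CRY2) as the partner of PER in this repression, and it lacks the timeless gene that pairs with period in Drosophila. In bees the brain level of period mRNA is known to oscillate over the day in foragers and to be tied to age and to the move from nursing to foraging. Neonicotinoids such as dinotefuran act on the nicotinic acetylcholine receptors of insect neurons.

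The deposited values were FPKM, a count of fragments relative to the length of the gene and to the size of the library, and the reads behind each value are not known. FPKM of most genes moved together between libraries, by a median ratio to the average library that ran from 0.539 in DT_1d replicate 1 to 1.81 in C_5d replicate 3. Levels are therefore given as scaled FPKM, the FPKM divided by this ratio, with the deposited FPKM beside them where the difference matters. C_1d replicate 1 and C_5d replicate 3 stood apart from their groups, with median ratios of 1.65 and 1.81, against 0.770 to 1.04 in the other 4 libraries of those groups. In the alignment summary of the study, C_1d replicate 1 had the highest intergenic share of reads and C_5d replicate 3 the highest intronic share. The intronic share was also higher in DT_10d than in DT_1d, while C_10d and C_1d overlapped. The part of these shares in the levels of Per was not tested. Transcripts of the 5 royal jelly protein genes Mrjp1, Mrjp2, Mrjp3, Mrjp4 and Mrjp7 were abundant, with sums between 10.8 and 100859 scaled FPKM per library. They serve here as markers of the hypopharyngeal gland, which lies beside the brain in the head and makes royal jelly. The study also cites reports of royal jelly proteins in the bee brain, and the source of this RNA was not tested. The lncRNA values of DT_1d replicate 1 were the same as those of DT_10d replicate 1. Which of these 2 libraries they belong to was not tested. Those of DT_1d replicate 1 were left out, so lncRNAs have 17 libraries.

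Per (gene ID 406112) lies on linkage group 12 of the assembly Amel_HAv3.1, at 10032689 to 10051762, and has 8 annotated transcripts, which all carried the value of the gene, so its isoforms could not be told apart. It was detected in 18 of 18 libraries at a moderate level, between the 57.2 and 81.6 percentile of all genes by FPKM. The scaled FPKM of Per was 6.16, 6.67 and 6.29 in DT_1d libraries, against 7.79, 6.48 and 5.97 in C_1d libraries. The values of the 2 groups overlapped, with C_1d replicate 1 the highest of the 6. On day 5 the scaled FPKM was 5.67, 7.62 and 7.15 in DT_5d libraries, against 7.69, 7.78 and 15.2 in C_5d libraries. All DT_5d values lay below all C_5d values, by a gap of less than 0.1 between the nearest ones, and C_5d replicate 3 was the highest of the 18 libraries. The share of all features for which 2 groups separate like this was not counted, here or in later comparisons. On day 10 the scaled FPKM was 10.8, 11.6 and 13.3 in DT_10d libraries, against 7.15, 11.1 and 14.3 in C_10d libraries. The DT_10d values lay inside the range of the C_10d values, of which replicate 1 was as low as the libraries of day 1.

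**Figure D1:**
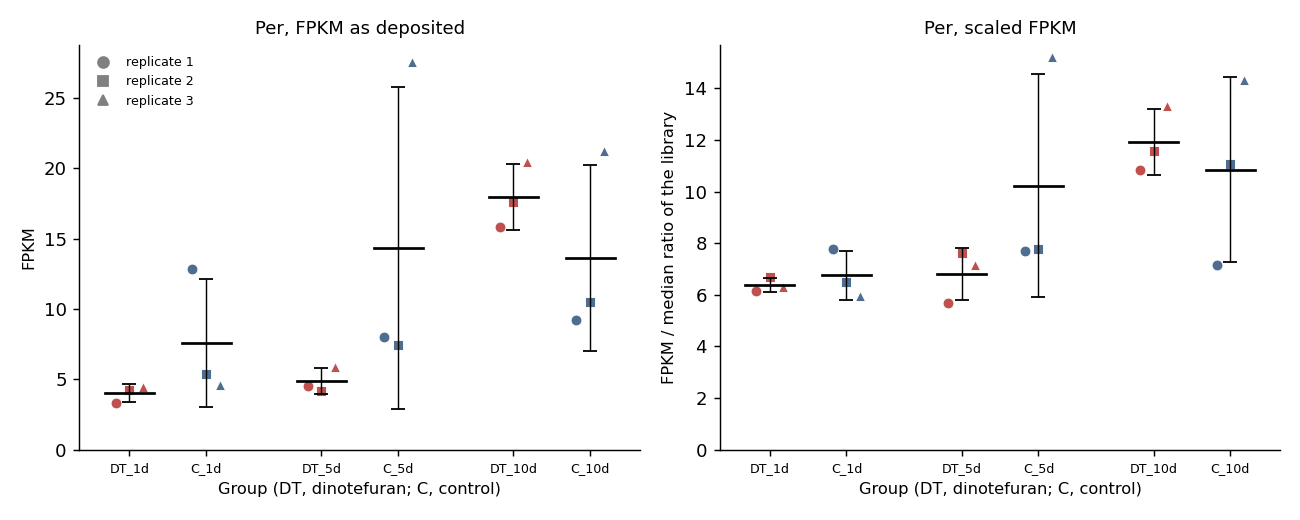
Per in each library, as deposited FPKM (left) and as scaled FPKM (right), by group, with DT (dinotefuran) in red and C (control) in blue. Symbols are replicates, horizontal lines group means and bars the SD of 3 libraries. Deposited values span 3.32 to 27.6 and scaled values 5.67 to 15.2, and on both scales DT_10d stands above DT_1d and DT_5d.

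As group means, Per stood at 6.37 ± 0.266 scaled FPKM in DT_1d, 6.81 ± 1.02 in DT_5d and 11.9 ± 1.27 in DT_10d (SD, n = 3 each). The means of the controls were 6.75 ± 0.937 in C_1d, 10.2 ± 4.32 in C_5d and 10.8 ± 3.59 in C_10d. The order of the scaled means was DT_1d, C_1d, DT_5d, C_5d, C_10d and DT_10d, and each step between neighbours in it was smaller than the larger of their SDs. The controls of day 5 and day 10 varied more among themselves than the dinotefuran groups did, although this difference in spread was not tested. The deposited FPKM of Per was 15.8, 17.6 and 20.5 in DT_10d libraries, against 3.32, 4.27 and 4.48 in DT_1d libraries. In the controls it was 9.23, 10.5 and 21.3 in C_10d, against 12.9, 5.38 and 4.59 in C_1d. Scaling thus narrowed the span of Per over the series to 2.68-fold, against 8.31-fold in the deposited values.

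Whether dinotefuran changed Per at a given age was asked with limma, fitted to log2(scaled FPKM + 0.1) of 13730 features in all libraries, with Benjamini-Hochberg adjustment over all of them and a call at an adjusted p under 0.05. Per was not called at any age. On day 1 the log2 fold change of DT_1d over C_1d was -0.07 (95% interval -0.61 to 0.47, limma adjusted p = 0.932), in a comparison that called 0.0583% of the features. On day 5 it was -0.51 (-1.05 to 0.03, adjusted p = 0.281, unadjusted 0.0606), with 1.09% of the features called. On day 10 it was 0.19 (-0.35 to 0.72, adjusted p = 0.846), with 0.932% called. Over the 3 ages together DT over C was -0.13 (-0.45 to 0.18, adjusted p = 0.666), with 1.26% called. The direction of the small differences turned without 1 library, to 0.03 on day 1 without C_1d replicate 1 and to -0.08 on day 10 without C_10d replicate 1. The day 5 difference rested largely on C_5d replicate 3, since it was -0.19 (adjusted p = 0.782) without that library. In the deposited FPKM, where the median gene was lower by 0.73 on the log2 scale in DT_5d than in C_5d, the value for Per was -1.28 (adjusted p = 0.0738).

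Per rose from day 1 to day 10. In this design age cannot be told apart from the day of collection, nor, in the DT groups, from the length of exposure to dinotefuran. Over both treatments the log2 fold change of Per, day 10 over day 1, was 0.76 (95% interval 0.38 to 1.14, 1.69-fold, limma adjusted p = 0.00505). Of all features 32.2% were called in this comparison, 16.7% as higher, so a call in itself was common there, while the fold change of Per was exceeded by 5.68% of the 9352 genes tested. The 6 libraries of day 10 had 7.15 to 14.3 scaled FPKM (median 11.3), against 5.97 to 7.79 (median 6.39) in the 6 libraries of day 1. C_10d replicate 1 was the one library of day 10 inside the range of day 1. The libraries of day 5 spanned 5.67 to 15.2 (median 7.65). With the limit on fold change that the study set (a log2 value beyond 1), under which 8.57% of the features were called, Per was not called.

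Taken by treatment, Per rose in the dinotefuran bees by a log2 fold change of 0.89 for DT_10d over DT_1d (95% interval 0.35 to 1.43, 1.85-fold, limma adjusted p = 0.0164), in a comparison that called 29.7% of the features, 15.3% as higher and 14.1% with a log2 fold change beyond 1 in size. The DT_10d libraries lay above all DT_1d libraries. Without DT_10d replicate 3 this value was 0.80 and was not called (adjusted p = 0.0628). In the controls C_10d over C_1d was 0.63 (0.09 to 1.17, adjusted p = 0.190), and 1.33% of the features were called. The difference of these 2 changes, the interaction of age and treatment, was 0.26 (-0.51 to 1.02, adjusted p = 0.779, with 0.269% of the features called), so a different rise in the 2 treatments was not shown. Without C_10d replicate 1 the interaction was -0.01.

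Between neighbouring ages, DT_5d over DT_1d was 0.08 (limma adjusted p = 0.892, 7.63% of the features called), and DT_10d over DT_5d was 0.80 (adjusted p = 0.0626, 8.28% called), with all DT_10d values above all DT_5d values. C_5d over C_1d was 0.53 (adjusted p = 0.305, 0.328% called), and C_10d over C_5d was 0.10 (adjusted p = 0.958, 0.364% called). None of these steps passed the threshold, although DT_10d over DT_5d did (adjusted p of 0.0218 to 0.0494) when C_1d replicate 1, C_5d replicate 3, C_10d replicate 1 or C_10d replicate 3 was left out. DT_5d over DT_1d was -0.000634 without DT_5d replicate 2. Without C_5d replicate 3, C_5d over C_1d was 0.20 and C_10d over C_5d 0.43, so which control step was the larger depended on that library. C_10d over C_5d was -0.06 without C_5d replicate 1, -0.05 without C_5d replicate 2 and -0.12 without C_10d replicate 3.

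**Figure D2:**
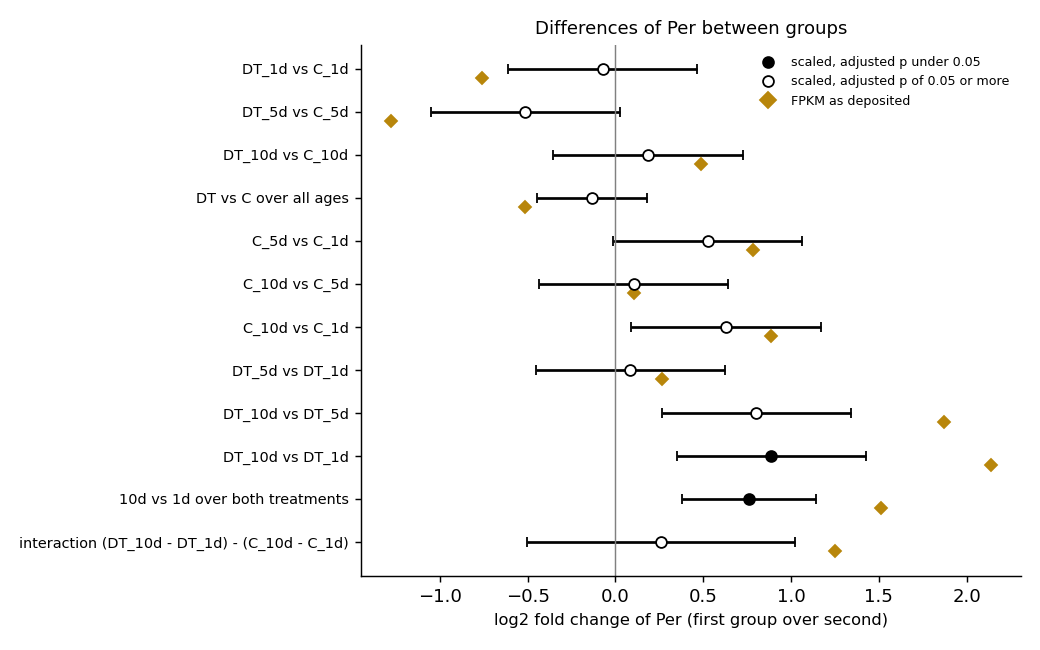
log2 fold change of Per in 12 comparisons (horizontal axis, first group over second), with 95% intervals from limma. Circles are scaled FPKM, filled where the adjusted p is under 0.05, and diamonds are the same comparison in deposited FPKM. The 2 filled circles are DT_10d over DT_1d at 0.89 and day 10 over day 1 at 0.76, and the diamonds lie farther from 0 in most rows.

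Markers of several cell types were also called between day 10 and day 1, a comparison in which 32.2% of all features were called, 16.7% as higher. Of 8 neuronal genes 3 rose and none fell: the synaptic genes Syt1 and brp, by log2 values of 0.50 and 0.58, and the dopamine receptor gene Dop1, by 0.96. The summed scaled FPKM of the 8 was 42.0 to 52.0 on day 10, against 30.3 to 38.2 on day 1. Of 4 photoreceptor genes 4 rose, the opsins Uvop (0.61), Blop (0.74), Lop1 (0.95) and Lop2 (1.07), with sums of 522.5 to 846 on day 10, against 272 to 692 on day 1. Of 6 gland genes the 5 Mrjp genes fell and Hbg3, an alpha-glucosidase, rose. The list summed to 909 to 8952 scaled FPKM on day 10, against 7348 to 101148 on day 1. Of 5 fat body genes 4 fell, among them Vg (vitellogenin, -1.69) and the storage protein gene Hex70a (-3.66), and the glial gene Eaat-2 was not called. No gene of these lists was at 0 in all libraries of a group. The lists were matched by symbol or synonym, and most are incomplete. A gene was found for 8 of 11 neuronal names, 1 of 2 glial, 4 of 7 photoreceptor, 6 of 7 gland and 5 of 5 fat body names. The part of these cell types in the change of Per was not tested, and in pooled brains more cells with Per and more Per RNA per cell cannot be told apart.

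The ratio of Per to Cry2 within a library needs no scaling between libraries, and it is given here as a description chosen after the values were seen. The ratio was 1.18, 1.08 and 1.19 in DT_1d libraries, against 2.42, 1.05 and 0.858 in C_1d libraries. It was 1.39, 1.32 and 1.26 in DT_5d, against 2.02, 2.34 and 3.00 in C_5d, so all DT_5d libraries lay below all C_5d libraries. It was 2.62, 2.29 and 2.50 in DT_10d, against 2.30, 2.66 and 3.20 in C_10d, where the ranges overlapped. Over both treatments it was 2.29 to 3.20 (median 2.56) on day 10, against 0.858 to 2.42 (median 1.13) on day 1. The DT_5d libraries were thus nearer to DT_1d than to DT_10d. The C_5d libraries overlapped with C_10d and, through C_1d replicate 1, also with C_1d.

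The ratio of Per to Cry2 was split in the same way as the summed markers of several cell types. In 8 libraries it was under 2 (0.858 to 1.39), and these had a sum of the 5 Mrjp genes between 40391 and 100859 scaled FPKM. In the other 10 it was at least 2 (2.02 to 3.20), with Mrjp sums between 10.8 and 5918. The gland gene Hbg3 taken alone was not split in this way. It had 64.4 to 4325 scaled FPKM in the 8 libraries, against 351 to 8918 in the 10. The same 8 libraries had sums of 4 photoreceptor genes between 272 and 411 scaled FPKM, against 461 to 846 in the other 10, and sums of 5 fat body genes between 29.9 and 75.1, against 5.30 to 22.9. The sums of 8 neuronal genes overlapped, with 30.3 to 40.4 in the 8 libraries, against 38.0 to 54.0 in the 10, and so did the glial gene. C_1d replicate 1 had a ratio of 2.42 and a Mrjp sum of 2128, against sums of 50699 and 65906 in the other C_1d libraries. On day 5 the Mrjp sum was 40391 to 69495 in DT_5d, against 4542 to 5918 in C_5d. The limit of 2 was set after the values were seen, and the part of these cell types in the ratio was not tested.

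**Figure D3:**
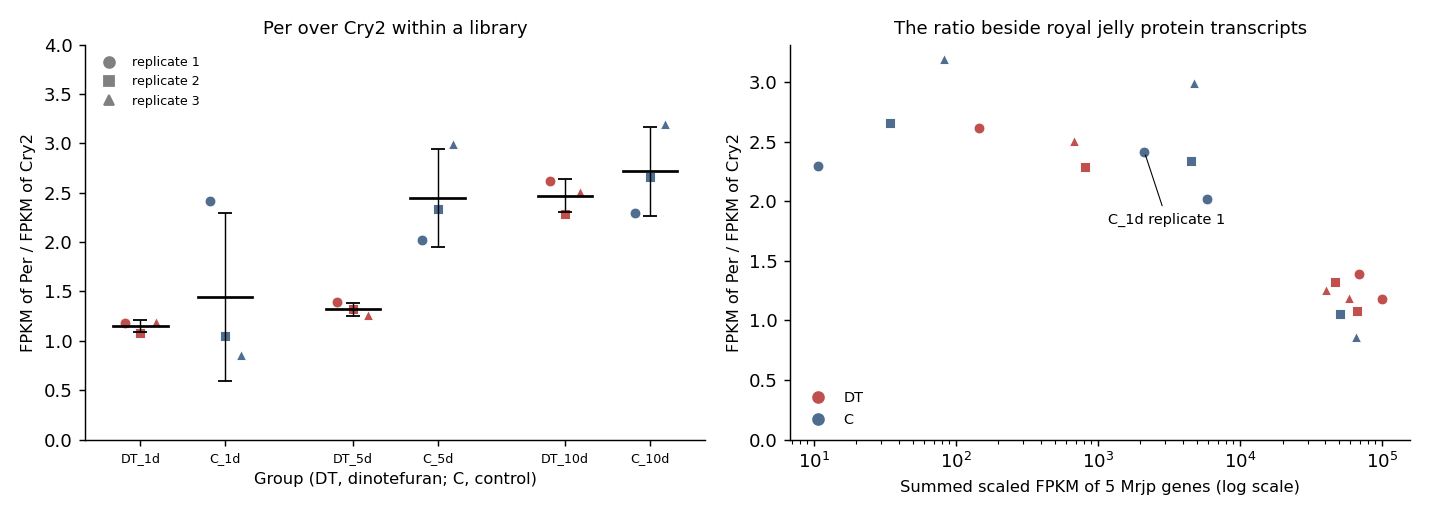
Left, FPKM of Per divided by FPKM of Cry2 within each library, by group (symbols are replicates, lines means, bars SD of 3 libraries). Right, the same ratio against the summed scaled FPKM of 5 Mrjp genes (log scale), DT in red and C in blue. Libraries with Mrjp sums of at least 40391 have ratios up to 1.39, and those with sums up to 5918 have ratios of at least 2.02.

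Cry2 (gene ID 410197, linkage group 10, 9884663 to 9893215) encodes the repressor that partners PER. Its scaled FPKM was 5.57 ± 0.538 in DT_1d, against 5.45 ± 1.97 in C_1d. It was 5.18 ± 0.955 in DT_5d, against 4.07 ± 0.905 in C_5d, and 4.84 ± 0.618 in DT_10d, against 3.92 ± 0.716 in C_10d (SD, n = 3 each). The groups overlapped at each age, and Cry2 was not called in any comparison of DT with C (limma adjusted p of 0.366 over all ages). Its log2 fold change of day 10 over day 1 was -0.31 (95% interval -0.68 to 0.07, adjusted p = 0.202) in scaled FPKM and 0.44 in deposited FPKM, so no direction is given for it. Without C_1d replicate 1 the scaled value was -0.47 (adjusted p = 0.0148).

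E75 (gene ID 410309, linkage group 11, 10210607 to 10372038) encodes a nuclear receptor of the ecdysone response that also acts in the clock of Drosophila. It was higher on day 10 than on day 1 over both treatments, by 0.72 on the log2 scale (95% interval 0.43 to 1.02, limma adjusted p = 0.00114). Its scaled FPKM was 10.1, 8.74 and 11.7 in DT_10d libraries, against 6.50, 6.11 and 6.57 in DT_1d libraries. In the controls it was 10.9, 10.1 and 10.0 in C_10d, against 5.72, 7.28 and 4.96 in C_1d. On day 10 all libraries of either treatment lay above those of day 1. DT_10d over DT_1d was 0.66 (adjusted p = 0.0192), and C_10d over C_1d was 0.79 (adjusted p = 0.0532). The first was not called without DT_1d replicate 2 (0.62, adjusted p = 0.0623) or DT_10d replicate 3 (0.55, adjusted p = 0.0841), and the second was called without C_1d replicate 1 (adjusted p = 0.0243) or C_5d replicate 3 (adjusted p = 0.0233). The mean of E75 on day 5 was 10.1 ± 1.18 in DT_5d, against 10.3 ± 3.49 in C_5d, and all libraries of day 5 lay above those of day 1 given the same diet. DT over C was 0.03 over all ages (-0.21 to 0.27, adjusted p = 0.918) and -0.35 in deposited FPKM, so no direction is given. Of the list of other clock genes 2 of 25 names matched a gene by symbol or synonym, these 2 genes.

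TCONS_00069016, the lncRNA transcript listed under Per, was near the lower end of what was measured. Its deposited FPKM ran from 0 in C_1d replicate 3 to 0.351 in DT_10d replicate 3, and it was at most 4.21% of the FPKM of Per in the same library. The scaled FPKM was 0.0496 and 0.130 in DT_1d, against 0.0899, 0.109 and 0 in C_1d. It was 0.128, 0.321 and 0.171 in DT_5d, against 0.106, 0.192 and 0.109 in C_5d. It was 0.170, 0.224 and 0.228 in DT_10d, against 0.0489, 0.125 and 0.110 in C_10d. The DT_10d libraries all lay above the C_10d libraries, while the groups overlapped on day 1 and day 5. How many of all features separate like this was not counted. The value of DT_10d replicate 1 is among the lncRNA values repeated in DT_1d replicate 1, and it may belong to that library instead. The log2 fold change of DT_10d over C_10d, with 0.1 added to each value, was 0.68 (95% interval -0.04 to 1.39, limma adjusted p = 0.448), and over all ages DT over C was 0.42 (-0.01 to 0.85, adjusted p = 0.280). For day 10 over day 1 it was 0.50 (-0.04 to 1.03, adjusted p = 0.143) in scaled FPKM, and 0.85 and called (adjusted p = 0.0192) in deposited FPKM, where the median gene was higher by 0.72. The size of these values depended on the number added: with 1 in place of 0.1, DT over C over all ages was 0.086 and day 10 over day 1 was 0.093, and with 0.01 they were 0.85 and 1.12, not called in either case. Between DT and C, at each age and over all ages, limma called 0 of the 2 rows named Per. An unadjusted p under 0.05 was reached by 0 of them. Of all 13730 features it was reached by 1314 on day 1, 2643 on day 5, 1650 on day 10 and 2560 over all ages. The 2 rows are too few to set against these shares.

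**Figure D4:**
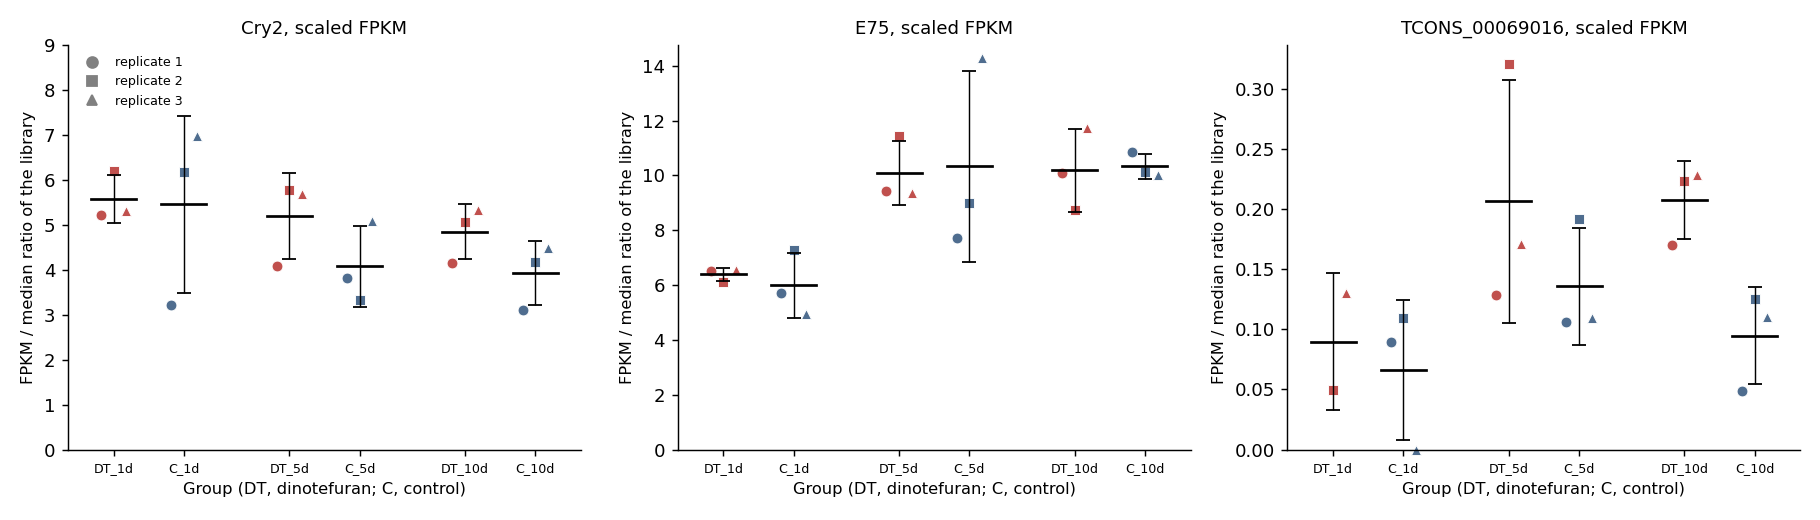
Scaled FPKM of Cry2, E75 and TCONS_00069016 in each library, by group, with DT in red and C in blue (symbols are replicates, lines means, bars the SD of 3 libraries, or of 2 for TCONS_00069016 in DT_1d). Each panel has its own vertical axis. E75 is higher on day 10 (8.74 to 11.7) than on day 1 (4.96 to 7.28), and TCONS_00069016 stays at or under 0.321.

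Among 7810 genes with a mean of at least 1 scaled FPKM, the values of LOC413946 (linkage group 8, 1836224 to 1884516) followed Per most closely over the 18 libraries, with a Pearson r of 0.96 on the log2 scale, and LOC409795 (linkage group 3, 9698620 to 9836414) came next with 0.94. These correlations are a description, since the libraries share their 6 groups and their spread in Mrjp RNA. LOC413946 averaged 17.2 ± 1.00 scaled FPKM in DT_10d, against 10.7 ± 0.784 in DT_1d, and 16.7 ± 2.65 in C_10d, against 11.4 ± 1.57 in C_1d. E75 ranked 1091 by likeness to Per (r = 0.66) and Cry2 ranked 4178 (r = -0.12). For TCONS_00069016 over 17 libraries the closest genes were LOC410674 (linkage group 1, 21546146 to 21688280, r = 0.82) and LOC409409 (linkage group 9, 11401222 to 11409255, r = 0.78), and Per ranked 947 (r = 0.35). These 2 were not the closest by other measures, which put LOC102653764 first by Spearman's rho (0.78) and LOC100576803 first in deposited FPKM (r = 0.86).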

How the data were processed

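Sample labels gave the groups. For the deposited files the authors used Hisat2 on the genome Amel_HAv3.1, then StringTie, and Cuffdiff for the FPKM values. How values were normalised between libraries is not given in the sources used here. Low FPKM values were checked for whole-read steps in 153 pairs of libraries. At most 2.84% of the genes under 0.2 FPKM in both libraries of a pair shared 1 ratio (within 0.1%), so read counts were not recovered, and the precision is the SD between libraries. The study took brood frames from several colonies, but neither it nor the labels say which colony a library came from. A pairing by colony could not be modelled, so p-values measure the spread between pools, which may be partly technical.

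FPKM was divided by the median ratio of each library to the geometric mean, over 9119 genes above 0 in 18 libraries. Features that reached an FPKM of 0.1 in 3 or more libraries (9352 genes and 4378 lncRNAs) were fitted on log2(scaled FPKM + 0.1) with limma 3.58.1 in R 4.3.3, as 6 group means with moderated variances (prior degrees of freedom 3.42). Fold changes on this scale understate the change of low values. The fit was tested on simulated data. Summaries and figures used Python 3.11.15, numpy 2.4.6, pandas 2.3.3 and matplotlib 3.10.9. Positions and synonyms came from RefSeq.

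The genes named are the rows of the clock names, the matched genes of a list of other clock genes, the 2 genes with the highest Pearson r to each member and the cell type markers. The neighbours of Per were added. Members and lists were chosen with earlier results of these data known. Alternatives were other scalings, pseudocounts, filters and fits, a replicate block and leaving out libraries. No sequence is shown, and a planned search for motifs in promoters was not run.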

Additional observations from a re-analysis of the deposited data

How the results depend on the processing

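Over 26 results, 637 of 687 alternative values kept the direction and the side of the threshold, and 50 did not. For the genes most like a member, the same closest gene was counted as kept. Many of these values could not move, since leaving out a library outside a comparison changes its error and adjusted p but not its fold change. The count is therefore no measure of how robust the results are. For Per, day 10 over day 1 stayed called when each library was left out in turn (0.64 to 0.89) and in 9 of 10 other settings, but not with a log2 limit of 1 (0.76), nor was DT_10d over DT_1d (0.89), which ran from 0.80 to 0.95 with 1 library left out. DT_10d over DT_5d was called in deposited FPKM (1.87), and at 0.80 in a fit of genes alone, of the libraries compared alone, and without both C_1d replicate 1 and C_5d replicate 3, an alternative chosen after seeing the data. It was also called with a replicate block (0.80, limma adjusted p = 0.0468). Whether replicate numbers pair the libraries was not settled. Deviations were correlated above 0.1 in 16 of 45 pairs of the same number in different groups, against 16 of 90 pairs of different numbers. Of pairs of DT and C of the same age and number, 2 of 9 were. The block changed no other call of Per. Without both C_1d replicate 1 and C_5d replicate 3, DT_1d over C_1d was 0.034, DT over C over all ages 0.00926, and C_10d over C_1d 0.74 (called, limma adjusted p = 0.0270). With 1 library left out, DT_1d over C_1d ran from -0.16 to 0.034, DT_10d over C_10d from -0.084 to 0.41, C_5d over C_1d from 0.20 to 0.69, C_10d over C_1d from 0.40 to 0.90, DT over C over all ages from -0.22 to -0.026, C_10d over C_5d from -0.12 to 0.43, DT_5d over DT_1d from -0.000634 to 0.21, DT_10d over DT_5d from 0.68 to 0.89 and the interaction from -0.011 to 0.48. TCONS_00069016 ran from -0.057 to 0.48 for C_10d over C_1d, and E75 from -0.031 to 0.12 for DT over C.

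In deposited FPKM, Cry2 reversed to -0.13 (DT over C), 1.04 (DT_10d over DT_1d) and 0.44 (day 10 over day 1), and E75 to -0.35 (DT over C). With quantile normalization Cry2 was 0.16 for DT_10d over DT_1d and E75 was -0.054 for DT over C. The median gene itself moved by 0.72 (log2) in deposited FPKM for day 10 over day 1, and Per was then 1.51. By Spearman's rho the gene most like Per was LOC551021 (0.96). The cause of these shifts was not tested. With 3 libraries a group, 18 pools in all, the interval of a single difference of Per was about 0.54 to either side.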

Other observations

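The genes beside Per lie on linkage group 12. LOC724546 ends 2899 bases before Per and LOC412116 starts 281 bases after it, with LOC409831 and LOC552712 as the next genes out. For day 10 over day 1 the log2 fold change was 0.34 for LOC724546, -0.18 for LOC409831, -0.01 for LOC412116 and -0.08 for LOC552712, and limma called 0 of 4 (adjusted p of 0.0876 to 0.954), in a comparison that called 32.2% of all features. The value for Per was 0.76. Of the 4, LOC724546 came nearest to a call, with 8.74 to 13.0 scaled FPKM on day 10 (median 9.54), against 6.62 to 11.3 on day 1 (median 7.32), so the libraries of the 2 ages overlapped. A difference between Per and its neighbours was not tested.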
